A study of Homo sapiens with 19 samples.

Results

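Cells of the acute myeloid leukaemia line Kasumi-1 were depleted of fibrillarin (FBL) by doxycycline-induced knockdown, and the knocked-down cells were given back mutant FBL, wild-type FBL or an empty vector. The comparison described here set the 4 libraries with mutant FBL against the 2 libraries with the empty vector, chosen by their sample titles and making up 6 of the 19 libraries of the series. The mutant libraries comprised 2 with the construct titled FBLTri and 2 with the construct titled FBLQua. All 6 carried the FBL knockdown and were treated with 100 ng/ml doxycycline. The comparison asks at which ribosomal RNA (rRNA) positions mutant FBL lowered methylation further than knockdown with the empty vector, and at which positions it gave part of it back. For orientation, 2 libraries with wild-type FBL in the same knockdown, 2 control knockdown libraries with the empty vector, and 2 FBL knockdown and 2 control knockdown libraries without a vector were also used.

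The labels give neither the mutated residues nor the promoter of the re-expressed FBL, and they do not say whether the replicates are separate cultures, so p-values measure only the spread between these libraries. Titles and column names of the deposited tables disagree on the mutants: Dual appears in the columns of the FBLTri libraries, and Tri in the columns of the FBLQua libraries. Groups here follow the titles. The pooled comparison holds the same 4 libraries under either naming, whereas every statement that separates FBLTri and FBLQua rests on the titles. How much mutant FBL the cells made, and how much endogenous FBL the knockdown left, cannot be read from rRNA fragments and was not tested.

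Fibrillarin is the catalytic subunit of box C/D particles, the ribonucleoproteins of the nucleolus that methylate rRNA. In each particle a guide RNA (SNORD) pairs with pre-rRNA and thereby selects the nucleotide whose ribose receives a 2′-O-methyl group, while NOP56, NOP58 and SNU13 form the rest of the protein core. Most guides are excised from introns of host genes, many of which encode ribosomal proteins or translation factors. Methylated nucleotides cluster in the functional regions of the ribosome, and some of them are methylated in only a fraction of molecules.

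Methylation was read by RiboMethSeq, in which a 2′-O-methyl group protects the adjacent bond from alkaline hydrolysis and so leaves a gap in the fragment ends. The value is score C, which compares the ends at a position with those in its flanks: it is near 1 where nearly all molecules are protected and 0 where the ends are as frequent as in the flanks or more so. The deposited scores cover 120 sites (18S rRNA has 47 of them, 28S rRNA 71 and 5.8S rRNA 2), and sites are named by subunit and position in the rRNA numbering of the files. The 6 libraries held 11232162 to 13246797 end counts. Counting error alone gave a score a median 95% half-width of 0.0226, with a largest value of 0.276, and covers counting only since fragments carry no molecular identifiers. Of the 720 site and library pairs, 48 had a score of 0. Replicates of a group differed by more than sampling noise, with a chi-square per position of 17.9 between the FBLTri libraries, 38.6 between the FBLQua libraries and 29.7 between the empty-vector libraries. Changes are differences in score C, mutants minus empty vector, from limma with Benjamini-Hochberg adjustment over the 120 sites; a site was called at an adjusted p under 0.05.

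Mutant FBL left the average level of methylation about where it was with the empty vector and changed single sites in both directions. The mean score over the 120 sites was 0.716 and 0.715 in the FBLTri libraries and 0.716 and 0.722 in the FBLQua libraries, against 0.715 and 0.727 in the empty-vector libraries. All 4 mutant libraries lay between the empty-vector libraries. The group means of 0.717 ± 0.00312 (SD, n = 4) with mutants and 0.721 ± 0.00885 (SD, n = 2) with the empty vector differed by −0.00367, and the two-sided exact permutation test gave p = 0.667. Without empty-vector replicate 2 the difference had the other sign, at 0.00259. Against that background, 18 sites were lower with the mutants (15% of the 120 tested) and 18 were higher (also 15%), which makes 30.0% called in either direction. The other 84 were not called.

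**Figure D1:**
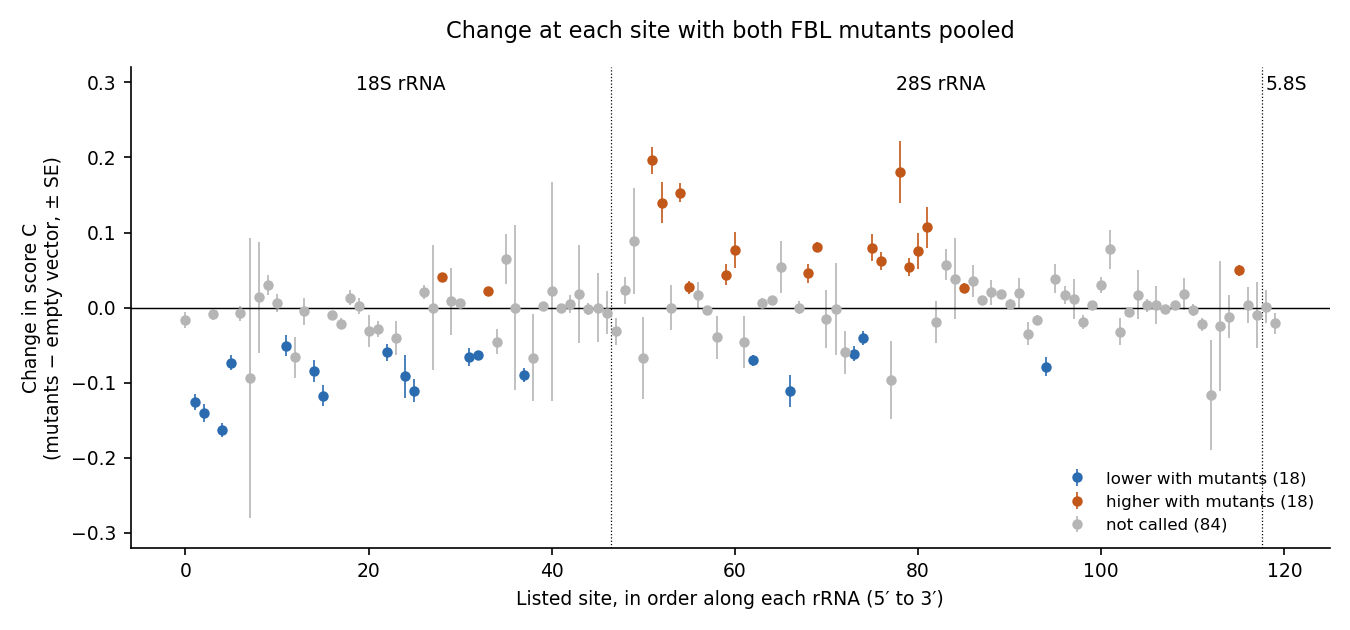
Change in score C (mutants minus empty vector, with its SE from limma) at each of the 120 sites, ordered along 18S, 28S and 5.8S rRNA. Blue points are the 18 sites called lower with the mutants, orange points the 18 called higher, and grey points the 84 not called; blue points gather in 18S and orange points in 28S rRNA.

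The lowered and raised sites were spread unevenly over the subunits. Of the 47 listed sites of 18S rRNA, the RNA of the small subunit, 13 were lowered and 2 were raised. Of the 71 listed sites of 28S rRNA, the RNA of the large subunit that holds the peptidyl transferase centre, 5 were lowered and 16 were raised. Across the 120 sites, the share was 15% in each direction. The median change was −0.00823 over the 18S sites and 0.00641 over the 28S sites, against 0 over all 120 sites. A single value per library, computed from the same scores, restates this contrast. The mean 18S score minus the mean 28S score was 0.00185 and −0.00414 in the FBLTri libraries and −0.0095 and 0.0126 in the FBLQua libraries, against 0.0494 and 0.0388 in the empty-vector libraries. All mutant libraries thus lay below both empty-vector libraries. The groups differed by −0.0439, with p = 0.0667 in the two-sided exact permutation test. That is the smallest value that the 15 arrangements of 4 against 2 libraries allow. With wild-type FBL, mean 18S scores (0.786 and 0.794) lay below mean 28S scores (0.821 and 0.821). So they did in control knockdown with the empty vector (0.806 and 0.822, against 0.901 and 0.903). In FBL knockdown without a vector they lay above (0.804 and 0.795, against 0.772 and 0.777).

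Along the 18S rRNA, lowered sites were most frequent in the first 670 positions, which hold 23 listed sites. Of these, 8 were lowered and 0 were raised by limma (1 was higher at an unadjusted p under 0.05), with a median change of −0.0288. Counts by region are to be read against 15% lowered and 15% raised over all 120 sites. In 18S rRNA as a whole, 27.7% were lowered (13 of 47). The 24 sites above position 670 held 5 lowered and 2 raised sites. In 28S rRNA, the 15 sites up to position 2000 held 6 raised sites and 0 lowered ones (0 also at an unadjusted p under 0.05), with a median change of 0.0230. The 17 sites above position 2000 and up to 3500 held 4 lowered and 5 raised sites, and the 20 sites from there to 4100 held 1 and 4. At the 3′ end of 28S rRNA, above position 4100, the 19 listed sites held 0 lowered sites and 1 raised site by limma, against 1 and 3 at an unadjusted p under 0.05. Neither site of 5.8S rRNA was called, nor at an unadjusted p under 0.05.

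The lowered site with the greatest change was 18S-159, guided by SNORD45A and SNORD45C from introns of RABGGTB, a gene for a subunit of the enzyme that prenylates Rab proteins. Its score was 0.662 and 0.650 with FBLTri and 0.712 and 0.722 with FBLQua, against 0.842 and 0.856 with the empty vector. All 4 mutant libraries were below both empty-vector libraries, an order found at 31 of the 120 sites (25.8%), and the FBLTri libraries were lowest. The change was −0.163 (SE 0.00944, limma adjusted p = 8.84e-06). On a logit scale of the score it was not called (limma adjusted p = 0.063). Wild-type FBL gave 0.940 ± 0.0105 and control knockdown with the empty vector 0.984 ± 0.0171 (SD, n = 2 each), so the mutants moved this site away from both.

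Some other positions of the 5′ domain of 18S rRNA were also lowered, with FBLTri lowest, while 18S-121 (SNORD4A and SNORD4B, −0.00823, limma adjusted p = 0.486) and 18S-172 (SNORD45A and SNORD45B, −0.00761, adjusted p = 0.648) were not called. At 18S-116, guided by SNORD42A and SNORD42B from RPL23A, the score was 0.688 and 0.701 with FBLTri and 0.729 and 0.756 with FBLQua, against 0.847 and 0.872 with the empty vector. The change of −0.141 (SE 0.0121, limma adjusted p = 3.51e-05) kept its call under every alternative tried. 18S-99, guided by SNORD57 from an intron of NOP56, had scores of 0.691 and 0.676 with FBLTri and 0.731 and 0.744 with FBLQua, against 0.835 and 0.837 with the empty vector. This was a change of −0.126 (SE 0.0104, adjusted p = 3.51e-05), not called on the logit scale (adjusted p = 0.17). 18S-166, guided by SNORD44 from the non-coding host gene GAS5, changed by −0.0735 (SE 0.0101, adjusted p = 0.000595). Its call was lost on the logit scale (adjusted p = 0.0924) and with the mutants as 1 group in 6 libraries alone (adjusted p = 0.0515).

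Further along 18S rRNA, a pair of positions with guides from introns of NOP58, a core protein of the same particles, was lowered. 18S-512, guided by SNORD70, had scores of 0.846 and 0.823 with FBLTri and 0.806 and 0.855 with FBLQua, against 0.955 and 0.944 with the empty vector. Its change of −0.117 (SE 0.0139, limma adjusted p = 0.000248) kept its call under every alternative. 18S-509, guided by SNORD11 and SNORD11B, had scores of 0.895 and 0.887 with FBLTri and 0.858 and 0.923 with FBLQua, against 0.974 and 0.976 with the empty vector. Both positions were close to fully methylated with the empty vector and lay lower in every mutant library. Each lies within the 6 flanking positions from which the score of the other is computed. With the flank positions of other listed sites left out, all 18 lowered and all 18 raised sites kept their calls.

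At 18S-799, guided by SNORD105 and SNORD105B from PPAN, a gene for a ribosome biogenesis factor, the scores were 0.731 and 0.728 with FBLTri and 0.804 and 0.845 with FBLQua, against 0.887 and 0.888 with the empty vector. The change was −0.111 (SE 0.0153, limma adjusted p = 0.000595), and the FBLTri libraries again stood lowest. Its neighbour 18S-797 (guide SNORDZL107) had 0.746 and 0.709 with FBLTri and 0.804 and 0.784 with FBLQua, against 0.813 and 0.891 with the empty vector. That change of −0.0912 (SE 0.0286, adjusted p = 0.0423) was close to the threshold and lost its call without 5 of the 6 libraries, empty-vector replicate 1 being the exception. The smallest value was −0.0522 without empty-vector replicate 2 (adjusted p = 0.338). 18S-1442, guided by SNORD61 from RBMX, had 0.633 and 0.652 with FBLTri and 0.701 and 0.702 with FBLQua, against 0.764 and 0.760 with the empty vector, a change of −0.0901 (SE 0.00899, adjusted p = 8.7e-05).

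The lowered 28S site with the greatest change was 28S-2388, guided by SNORD68 from RPL13. It was at 0 in both FBLTri libraries and at 0.00492 and 0.0433 in the FBLQua libraries, against 0.0945 and 0.151 in the empty-vector libraries. Wild-type FBL gave 0.593 ± 0.0194 and control knockdown with the empty vector 0.917 ± 0.0149 (SD, n = 2 each). The site was thus almost unprotected with the empty vector and had no measurable protection with FBLTri. The change was −0.111 (SE 0.0215, limma adjusted p = 0.00417), and it was not called without empty-vector replicate 2 (−0.0824, adjusted p = 0.0571). The other site of SNORD68, 18S-428, was not called (0.0306, adjusted p = 0.12).

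The remaining lowered sites changed less. 28S-3878 (SNORD12, SNORD12B and SNORD12C, from the non-coding host ZFAS1) changed by −0.0786 (SE 0.0127, adjusted p = 0.00151, limma), and 28S-2338 (SNORD24, from RPL7A) by −0.0700 (SE 0.00728, adjusted p = 9.63e-05). A pair of neighbours with guides from introns of RPL13A, 18S-1326 (SNORD33) and 18S-1328 (SNORD32A), changed by −0.0657 and −0.0635. SNORD32B is also listed as a guide of 18S-1328. 18S-1328 had 0.882 and 0.877 with FBLTri and 0.877 and 0.890 with FBLQua, against 0.944 and 0.946 with the empty vector, and its call (adjusted p = 3.51e-05) held under every alternative. The other 4 lowered sites, named after their values were seen, were 28S-2791 (SNORD55, −0.0613), 18S-668 (SNORD36A and SNORD36B, −0.0598), 18S-462 (SNORD14A and SNORD14B, −0.0509) and 28S-2802 (SNORD95, −0.0406). Over the 18 lowered sites the median change was −0.0814. Of these, 14 kept their call whichever of the 6 libraries was left out; the other 4 were 18S-462, 18S-797, 28S-2388 and 28S-2802, each of which lost it without empty-vector replicate 2. On a logit scale, which weights changes near 0 and 1 more, 7 sites were called lower, and 11 were with the 4 mutant libraries merged into 1 group and the 6 libraries fitted without the others. With the mutants kept apart and only the compared groups fitted, 17 were called lower.

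**Figure D2:**
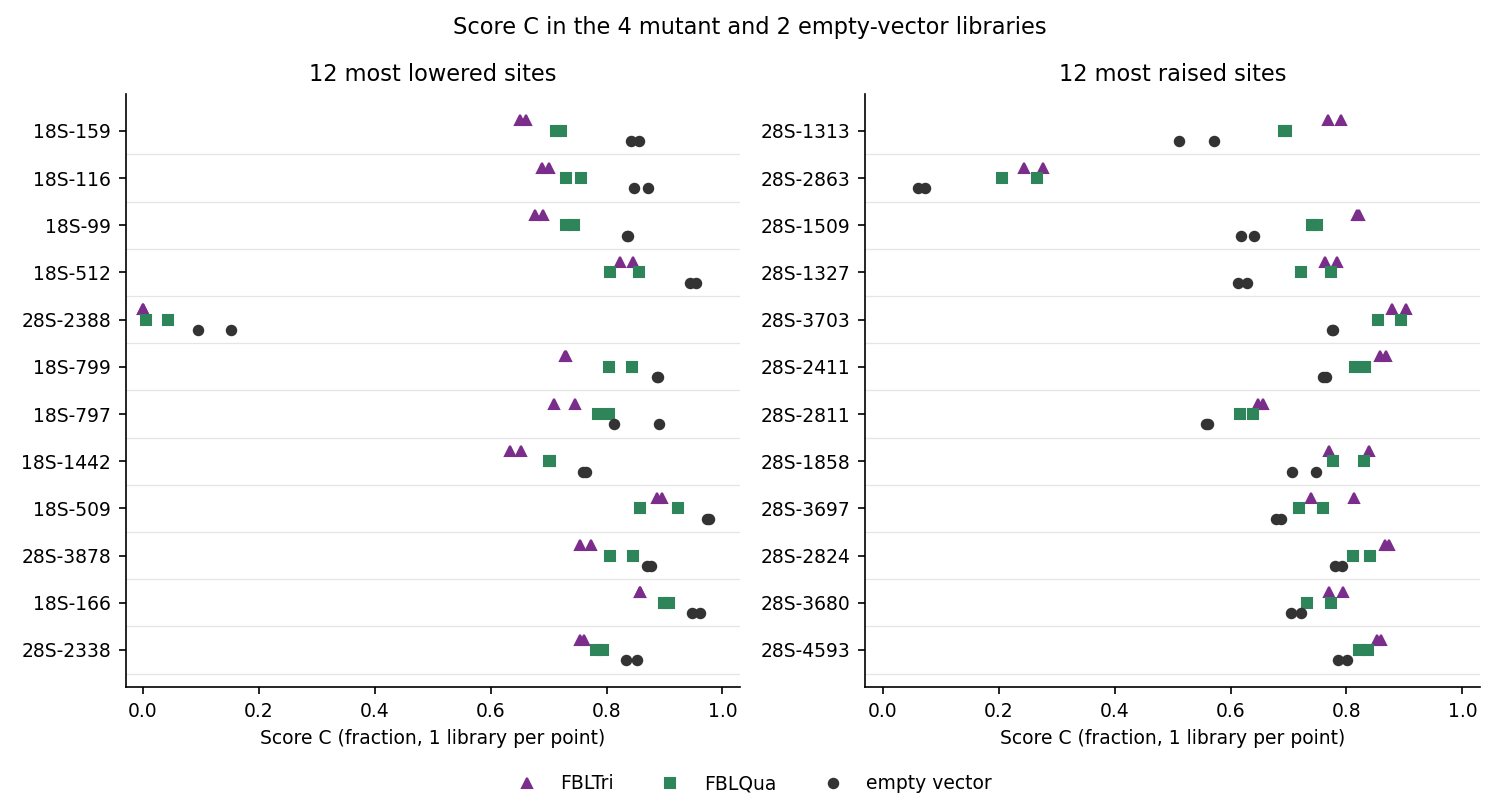
Score C (fraction, 1 point per library) of the 12 most lowered sites (left) and the 12 most raised sites (right) in FBLTri (triangles), FBLQua (squares) and empty-vector libraries (circles). At each of these sites, which were chosen by the same scores, the 4 mutant libraries lie on 1 side of both empty-vector libraries. Over all 120 sites, 31 have all mutant libraries below both (25.8%) and 27 have all above (22.5%). At 18S-797 the nearest values are 0.804 with FBLQua and 0.813 with the empty vector.

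Among the raised sites, 28S-1313 changed most. It is guided by SNORD18A, SNORD18B and SNORD18C from introns of RPL4, a protein of the large subunit. The score was 0.768 and 0.791 with FBLTri and 0.693 and 0.696 with FBLQua, against 0.571 and 0.510 with the empty vector. All mutant libraries were above both empty-vector libraries, an order found at 27 of the 120 sites (22.5%; the opposite order at 31, 25.8%), and FBLTri was highest. In limma the change was 0.196 (SE 0.0179, adjusted p = 4.84e-05). Wild-type FBL reached 0.922 ± 0.0042 and control knockdown with the empty vector 0.982 ± 0.00284 (SD, n = 2 each), and the mutants differed from these by −0.185 and −0.245.

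28S-2863, guided by SNORD50A from the non-coding host SNHG5, was nearly unmethylated with the empty vector. Its score was 0.244 and 0.276 with FBLTri and 0.266 and 0.205 with FBLQua, against 0.0615 and 0.0722 with the empty vector. The change was 0.181 (SE 0.0417, limma adjusted p = 0.00993), and it was not called without empty-vector replicate 1 (0.175) or replicate 2 (0.186). Wild-type FBL gave 0.409 ± 0.0632 and control knockdown 0.737 ± 0.0516 (SD, n = 2 each), so this site was partly methylated even in control cells. The other listed site of SNORD50A, 28S-2848, was not called: it had 0.172 and 0.172 with FBLTri and 0.462 and 0.319 with FBLQua, against 0.344 and 0.411 with the empty vector. There the FBLTri libraries were below both empty-vector libraries, whereas the FBLQua libraries lay on either side of them. The change at 28S-2848 was −0.0965 (SE 0.0524, adjusted p = 0.216).

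A further pair of raised sites lies in the first 2000 positions of 28S rRNA. 28S-1509, guided by SNORD2 from EIF4A2, which encodes a helicase of translation initiation, had scores of 0.822 and 0.817 with FBLTri and 0.741 and 0.749 with FBLQua, against 0.619 and 0.640 with the empty vector. The change was 0.153 (SE 0.013, limma adjusted p = 3.51e-05). 28S-1327, guided by SNORD104 from SNHG25, had 0.784 and 0.764 with FBLTri and 0.774 and 0.721 with FBLQua, against 0.629 and 0.614 with the empty vector. Its change was 0.140 (SE 0.0273, adjusted p = 0.00425). Here the libraries of both mutants overlapped, and the counting half-width reached 0.0837, the widest among the raised sites.

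In the middle of 28S rRNA, 28S-2411 (SNORD6, from TAF1D) had 0.868 and 0.858 with FBLTri and 0.815 and 0.832 with FBLQua, against 0.766 and 0.760 with the empty vector. This change of 0.0808 (SE 0.00611, limma adjusted p = 3.51e-05) was called under every alternative. 28S-2811, guided by SNORD95 from RACK1, a gene for a protein of the small subunit, had 0.656 and 0.648 with FBLTri and 0.617 and 0.638 with FBLQua, against 0.561 and 0.558 with the empty vector. It changed by 0.0801 (SE 0.0185, adjusted p = 0.00993) and lost its call without either empty-vector library. 28S-2824, guided by SNORD34 from RPL13A, changed by 0.0624 (SE 0.0123, adjusted p = 0.00437).

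28S-3703, guided by SNORD36C from RPL7A, came closest to the control level among the raised sites with a change above 0.1. The score was 0.902 and 0.879 with FBLTri and 0.895 and 0.855 with FBLQua, against 0.777 and 0.774 with the empty vector, a change of 0.107 (SE 0.0274, limma adjusted p = 0.0171). It was not called without empty-vector replicate 1 (0.108) or replicate 2 (0.106). The mutants differed by −0.0522 from wild-type FBL (adjusted p = 0.122) and by −0.0512 from control knockdown with the empty vector (adjusted p = 0.119), and neither difference was called. A p above the threshold does not show that the levels are equal, and the control libraries varied widely here (0.934 ± 0.0766, SD, n = 2).

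Of the other raised sites, 28S-1858 (SNORD38A and SNORD38B) changed by 0.0767 and 28S-3697 (SNORD37, from EEF2, the translocation factor) by 0.0751, both close to the threshold (limma adjusted p = 0.04 and 0.0444). 28S-3680 (the SNORD88 guides) changed by 0.0544 and 28S-4593 (SNORD78, from GAS5) by 0.0497. The 18S rRNA held 2 raised sites, and of these 18S-1383 was near full methylation. 18S-1031 (SNORD59A and SNORD59B) had 0.929 and 0.926 with FBLTri and 0.911 and 0.903 with FBLQua, against 0.877 and 0.877 with the empty vector (0.0404, SE 0.00409, adjusted p = 8.73e-05). 18S-1383 (SNORD30, from SNHG1) had 0.976 and 0.977 with FBLTri and 0.971 and 0.968 with FBLQua, against 0.955 and 0.947 with the empty vector (0.0217, SE 0.00281, adjusted p = 0.000429). Both calls held under every alternative. The last 4, named after their values were seen, were 28S-2409 (SNORD5, 0.0457), 28S-1747 (SNORD73A, 0.0440), 28S-1511 (SNORD32A, SNORD32B and SNORD51, 0.0269) and 28S-3771 (SNORD15A, 0.0261).

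Over the 18 raised sites the median change was 0.0687, and many of the calls depended on single libraries. With an empty-vector library left out, 10 sites were called higher without replicate 1 and 9 without replicate 2, and 11 of the 18 raised sites lost their call without at least 1 library. FBLQua alone against the empty vector gave 9 sites called higher, and the logit scale gave 5. With the compared groups fitted alone, 13 of the 18 raised and 15 of the 18 lowered sites kept their call. No raised or lowered site changed sign under any alternative tried.

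Each raised site was also called lower on knockdown without a vector. The 4 libraries without a vector are not part of the difference between mutants and empty vector, although they enter its estimate of the spread. In them, FBL knockdown lowered 71 of the 120 sites (59.2%) and raised 2 (1.67%) relative to control knockdown; with the library medians made equal, these counts were 28 and 51. All 18 raised sites were among the 71, which is 100% of the raised and 25.4% of the fallen sites. Of the 18 lowered sites 12 were among them, 66.7% of the lowered and 16.9% of the fallen sites. Among the 49 sites that had not fallen, 0 were raised with the mutants by limma, and 2 were higher at an unadjusted p under 0.05. A site that knockdown leaves near full methylation has little room to rise, and a site with a score of 0 cannot show a fall. Such limits of the score may shape these counts, and their part was not tested. The median knockdown change without a vector was −0.133 at the raised sites and −0.0578 at the lowered sites.

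The 6 lowered sites that the knockdown without a vector had not significantly changed were all in 18S rRNA: 18S-99, 18S-462, 18S-509, 18S-512, 18S-797 and 18S-799, with knockdown changes of −0.0638 to 0.0302. At 18S-799 the knockdown change was −0.00704 (limma adjusted p = 0.792), against −0.111 with the mutants. At 18S-512 it was −0.0346 (adjusted p = 0.0995), against −0.117 with the mutants. The knockdown mean without a vector was above the empty-vector mean at 96 of the 120 sites, at 17 of the 18 lowered sites and at 15 of the 18 raised sites. Set against the knockdown without a vector, the mutant mean was higher at 7 of the 18 raised sites and at 22 of all 120. The libraries with and without a vector differ in more than the vector. Their column names begin with shFBL4 and with shFBL1 or shFBL2, which the labels do not explain. Median flanking counts were 329 and 139 in FBL knockdown without a vector, against 1128 to 1529 in the 6 compared libraries. These differences cannot be told apart from the vector, whose part was not tested.

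**Figure D3:**
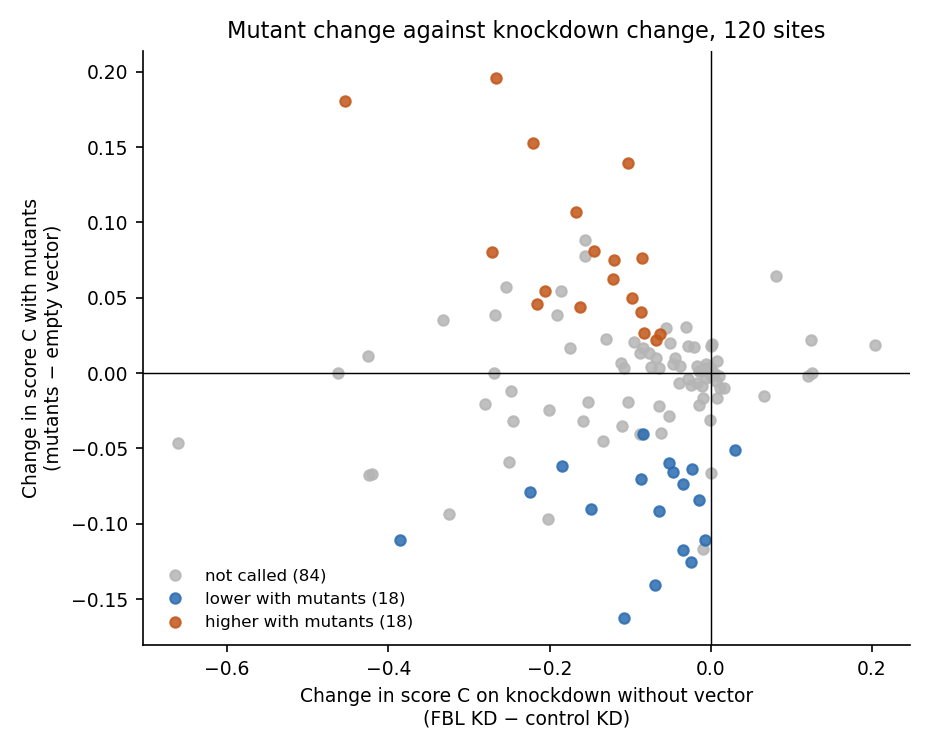
Change in score C with the mutants (vertical axis, mutants minus empty vector) against the change on knockdown without a vector (horizontal axis, FBL KD minus control KD) for the 120 sites. The 18 raised sites (orange) all lie left of 0 on the horizontal axis, and the 18 lowered sites (blue) range between −0.386 and 0.0302 on it.

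Partial return toward the control level was measured against wild-type FBL and control knockdown. At the 18 raised sites the median score was 0.823 with the mutants, 0.923 with wild-type FBL and 0.745 with the empty vector, and it was 0.977 in control knockdown with the empty vector. The mutants were below wild-type FBL at 16 of these 18 sites, and below control knockdown also at 16. The other two in both comparisons were 28S-3703 and 28S-3771. Over all sites the mutants were lower than wild-type FBL at 79 (65.8%) and higher at 0 (0.00%) by limma, or at 1 at an unadjusted p under 0.05. With library medians made equal these counts were 25 and 48. The mutants were lower than control knockdown with the empty vector at 88 sites (73.3%) and higher at 1 (0.833%), 18S-1410, against 30 and 57 with library medians made equal.

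At the lowered sites the order was different. The median score was 0.775 with the mutants, 0.934 with wild-type FBL and 0.857 with the empty vector, and 0.966 in control knockdown with the empty vector. The mutants were below wild-type FBL and below control knockdown at all 18, against 79 (65.8%) and 88 (73.3%) of all 120 sites. These 18 sites were chosen by low scores in the same mutant libraries, so the count follows in part from the choice. Wild-type FBL raised 69 of the 120 sites relative to the empty vector (57.5%) and lowered 1 (0.833%). It raised all 18 of the sites that the mutants raised and 12 of the 18 that the mutants lowered. The wild-type and mutant comparisons share the empty-vector libraries, so these counts are not independent of each other. At 28S-1313, for example, the change was 0.196 with the mutants and 0.382 with wild-type FBL, both against the same empty-vector libraries. At 18S-159 it was −0.163 with the mutants and 0.0912 with wild-type FBL.

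**Figure D4:**
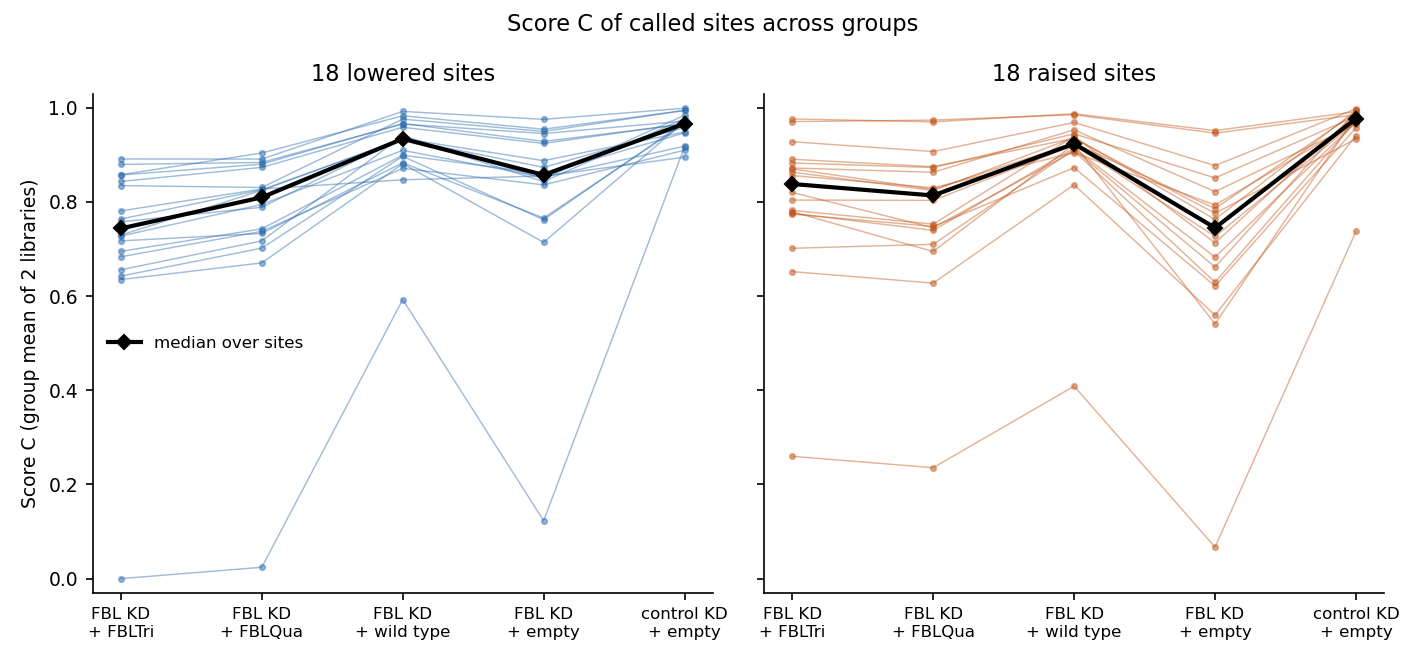
Group mean score C (2 libraries each) of the 18 lowered sites (left) and the 18 raised sites (right) in 5 groups; thin lines are sites and the thick line is the median over sites. For lowered sites both mutants lie below the empty vector (medians 0.744 with FBLTri and 0.809 with FBLQua, against 0.857), and for raised sites both lie between the empty vector and wild-type FBL (0.838 and 0.814, against 0.745 and 0.923).

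Sites that fell on knockdown were called with the mutants in part only. Of the 71 sites that fell without a vector, 41 were not called with the mutants (57.7%), against 84 of all 120 sites (70.0%). The 12 sites with the largest knockdown loss, a set chosen after the data were seen, held 2 raised sites, 1 lowered site and 9 not called, while 8 of the 12 were higher with wild-type FBL than with the empty vector. 28S-1868, guided by SNORD48, had the largest knockdown change without a vector, −0.661. It was at 0 and 0 with FBLTri and at 0.00773 and 0 with FBLQua, against 0.0222 and 0.0742 with the empty vector. Wild-type FBL gave 0.389 ± 0.0863 (SD, n = 2) at this site. The mutant change was −0.0463 with a 95% interval of −0.126 to 0.033 (limma adjusted p = 0.369), an interval that ends far below the wild-type change of 0.341.

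The mutant interval also ended below the wild-type change at most other sites of this set. These included the raised sites 28S-2863 and 28S-2811, the lowered site 28S-2388, and 18S-1447 and 28S-1303, which were not called. The wild-type change carries an error of its own, which this comparison leaves out. 28S-4020, guided by SNORD102, averaged 0.331 with the mutants and 0.320 with the empty vector, a change of 0.0114 (95% interval −0.0504 to 0.0733). 28S-3787, guided by SNORD10, changed by 0.0356 (−0.0135 to 0.0846), against 0.299 with wild-type FBL. 5.8S-75, guided by SNORD96A and SNORD96B, changed by −0.0207 (−0.0529 to 0.0115), against 0.239 with wild-type FBL. 28S-4020 changed by 0.180 with wild-type FBL. At 28S-3764 (SNORD15A and SNORD15B), in contrast, the interval of −0.0840 to 0.161 covered the wild-type change of 0.148. At 28S-1303 (SNORD21) the mutant change was −0.0673 (−0.193 to 0.0583), and wild-type FBL itself was not called (0.112). 28S-2402 was at 0 in all 6 libraries, and so were 5 other sites. Before negative values were set to 0, its score was −0.616 ± 0.0559 (SD, n = 4) with the mutants and −0.701 ± 0.0383 (SD, n = 2) with the empty vector, so no change could be read there.

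18S-1447, the site of SNORD127, whose knockout is the other arm of the series, was at 0 in all 4 mutant libraries, against 0.133 and 0.000717 with the empty vector. The empty-vector libraries differed from each other by more than the groups did. The change was −0.0668 (95% interval −0.199 to 0.0652, limma adjusted p = 0.441), and −0.164 (SE 0.0626, adjusted p = 0.07) when negative scores were kept. Wild-type FBL gave 0.297 ± 0.0262 and control knockdown with the empty vector 0.667 ± 0.127 (SD, n = 2 each). A site at the other end of the scale was 28S-4469, which is attributed to the stand-alone enzyme FTSJ3, the relative of yeast Spb1, and has no numbered guide in the files. It averaged 0.992 ± 0.00217 with the mutants (SD, n = 4) and 0.988 ± 0.0072 with the empty vector (SD, n = 2), and the change was 0.00409 (95% interval −0.00663 to 0.0148, adjusted p = 0.581).

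Sites grouped by guide family or host gene were mixed, and their counts are to be read against 15% lowered and 15% raised over all 120 sites. The 10 sites of guides hosted by GAS5 held 1 lowered site (18S-166) and 1 raised site (28S-4593), with a median change of 0.00556. Of the 5 sites of RPL13A-hosted guides, 2 were lowered (18S-1326 and 18S-1328) and 2 were raised (28S-1511 and 28S-2824). The 8 sites of SNHG1-hosted guides held 0 lowered sites and 1 raised site, 18S-1383, by limma, against 1 lower and 1 higher at an unadjusted p under 0.05. In the SNORD45 family 18S-159 was lowered, whereas 18S-172 (−0.00761) and 18S-174 (−0.0934, SE 0.186) were not called. The 33 sites with 2 or more guides held 8 lowered and 5 raised sites with a median change of 0. None of the 16 sites listed with a predicted or unknown guide was called by limma, or reached an unadjusted p under 0.05. Their median score was low, at 0.307 with the mutants and 0.264 with the empty vector, against 0.826 and 0.830 over all 120 sites. Of the 16, 2 had fallen on knockdown without a vector, against 71 of all 120.

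The same guide could serve a lowered and a raised site. Among 15 guides with at least 2 listed sites, examined after the data were seen, 3 had 1 site called in each direction. SNORD32A and SNORD32B, which are among these 3, share the same pair of sites and are not separate cases. Over all 120 sites 15% were lowered and 15% raised. SNORD95 guides 28S-2802 and 28S-2811, which lie 9 positions apart. 28S-2802 had 0.718 and 0.716 with FBLTri and 0.725 and 0.741 with FBLQua, against 0.757 and 0.774 with the empty vector (−0.0406, SE 0.00893, limma adjusted p = 0.00821), whereas 28S-2811 changed by 0.0801. SNORD32A and SNORD32B guide 18S-1328 and 28S-1511. 28S-1511, which is also served by SNORD51, had 0.884 and 0.881 with FBLTri and 0.867 and 0.879 with FBLQua, against 0.847 and 0.855 with the empty vector (0.0269, SE 0.00813, adjusted p = 0.0372), whereas 18S-1328 changed by −0.0635. The raised call at 28S-1511 was lost without 5 of the 6 libraries, FBLQua replicate 1 being the exception. The raised call at 28S-2811 was lost without either empty-vector library, and the lowered call at 28S-2802 without empty-vector replicate 2.

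The change from the empty vector was larger in size with FBLTri at 79 of all 120 sites (65.8%). The share was 16 of the 18 lowered and 16 of the 18 raised sites, which were chosen by the mean of both mutants. FBLTri alone against the empty vector gave 24 lower sites (20.0%) and 20 higher sites (16.7%), and FBLQua alone 14 lower (11.7%) and 9 higher (7.50%). Tested directly, FBLTri was lower than FBLQua at 6 sites (5%) and higher at 4 (3.33%). The 6 were lowered sites and the 4 were raised sites of the pooled comparison.

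The largest of these differences was at 18S-799, where FBLTri minus FBLQua was −0.095 (SE 0.0176, limma adjusted p = 0.0167). At 28S-1313 FBLTri was above FBLQua by 0.0846 (SE 0.0206, adjusted p = 0.0411) and at 28S-1509 by 0.0749 (SE 0.015, adjusted p = 0.0216). The other 7 were 28S-3878, 18S-159, 18S-1442, 18S-99 and 18S-166, lower with FBLTri, and 28S-2411 and 18S-1031, higher with FBLTri. These calls rest on 2 libraries of each mutant. Each of the 10 lost its call when some mutant library was left out, and without 1 library 0 to 2 sites were called lower and 0 to 1 higher. At 28S-2848 FBLTri minus FBLQua was −0.218 without being called (SE 0.0605, adjusted p = 0.0584).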

How the data were processed

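Per the submitters' processing notes, reads were handled with cutadapt and Bowtie2; settings, versions, reference and counting rule: not given in the sources used here. Per the labels' protocols, 100 ng of total RNA was hydrolysed for 12 min at 95 °C, which gave fragments near 30 nucleotides. The authors deposited end counts, not normalized, for 7000 rRNA positions and score C as a fraction for 120 sites with their guides. Score C is 1 minus the count 1 position after the site divided by the mean of weighted means of 6 flanking positions on each side (weights 1 to 0.5), set to 0 where negative; this gave the deposited value in 2280 of 2280 cases within 1e-09. Of the sites 44 have another listed site in their flanks, which can move their score.

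Deposited scores were tested with limma 3.58.1 (R 4.3.3) with a variance trend over the 14 knockdown libraries in 7 groups, two-sided, after tests on simulated data. Single values per library were compared by exact permutation in Python 3.11.15 with scipy 1.17.1. 95% counting intervals used 1.96 standard errors from Poisson counts. Host genes are RefSeq genes that contain a guide of that symbol, matched for 108 sites. Named sites were the 12 most lowered and 12 most raised called sites with the same sign in both mutants, all sites called between the mutants, 18S-1447, 28S-4469 and up to 3 per list. Members, lists and this rule were chosen with earlier results of these data known. Alternatives were the compared groups alone, 1 mutant alone, the mutants as 1 group in 6 libraries alone, no trend, a logit scale, unclipped scores, flanks of 2 positions, flanks without other sites, 10% of sites with low counts left out, equal medians, a replicate block and each library left out; the control knockdown library with 20.8% of its counts at 1 position was left out in a further alternative, chosen after seeing the data.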

Additional observations from a re-analysis of the deposited data

Results flagged for a closer look

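At 28S-2388, FBLQua replicate 2 (score 0.0433) stood apart from the other mutant libraries, which had 0.00492 with FBLQua and 0 and 0 with FBLTri. Its gap exceeded Dixon's 95% critical value for 4 samples (0.829). That value applies only roughly here. The FBLTri scores sit at 0, the floor to which negative scores are set, and the 4 libraries hold both constructs. Of the 52 sites examined in this way it was the only one, and chance alone gives about 5% of groups such a gap.

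The 2 mutants, set against the same empty vector, differed from each other at 10 sites by limma. FBLTri minus FBLQua was negative at 18S-799 (−0.095), 28S-3878 (−0.062), 18S-159 (−0.0613), 18S-1442 (−0.0594), 18S-99 (−0.0539) and 18S-166 (−0.0461), all lowered sites. It was positive at 28S-1313 (0.0846), 28S-1509 (0.0749), 28S-2411 (0.0391) and 18S-1031 (0.0208), all raised sites. The labels do not give the mutated residues or the amount of each protein, and the part of either in these differences was not tested.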

How the results depend on the processing

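Counts of called sites are all limma calls of a fit at an adjusted p under 0.05. They can include sites that the main fit did not call. The cause of a changed count was not tested. For mutants minus empty vector, the count of lower sites went from 18 to 7 on the logit scale (6 of the 18 kept). It was 11 with the mutants as 1 group in 6 libraries alone (10 of the 18 kept), and 14 to 18 without each library. The count of higher sites went from 18 to 5 on the logit scale and 9 with FBLQua alone. It was 10 without empty-vector replicate 1 (9 of the 18 kept) and 9 without replicate 2 (8 kept). Over all libraries left out it was 9 to 17. Samples share only a replicate number: deviations of same-numbered libraries correlated between −0.0279 and 0.0718 among the 3 groups and between −0.226 and 0.694 over all 7, and a replicate block gave 18 lower and 17 higher. The difference in mean score was −0.00993 to 0.00259 without each library, reversed at 0.00259 without empty-vector replicate 2, and that of 18S minus 28S was −0.0492 to −0.0386.

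For FBLTri minus FBLQua, 6 lower and 4 higher sites became 0 and 1 with the compared groups alone (25 at an unadjusted p under 0.05) and 0 and 0 on the logit scale (9 unadjusted). Flanks of 2 positions gave 10 lower, equal medians 1 higher, the replicate block 3 lower and 2 higher, and each library left out 0 to 2 lower and 0 to 1 higher.

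For knockdown without a vector, equal medians gave 28 lower and 51 higher; the 2 higher sites became 1 with the compared groups alone, the logit scale, unclipped scores, flanks of 2 positions, flanks without other sites, low-count sites left out or the replicate block. Leaving out each library gave 61 to 72 lower and 0 to 4 higher. Mutants minus wild-type FBL gave 25 lower and 48 higher with equal medians, 1 higher with unclipped scores, and 70 to 77 lower and 0 to 1 higher without each library. Mutants minus control knockdown gave 30 lower and 57 higher with equal medians, 0 higher with low-count sites left out, and 81 to 87 lower and 1 to 2 higher without each library.

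Sites that changed sign were not called. These were 28S-389 (0.0012) and 28S-2848 (0.0127) with FBLQua alone, and 28S-1029 and 28S-4469 without empty-vector replicate 1. Without each library, 28S-1029 ranged between −0.0246 and 0.202, 28S-4469 between −0.00100 and 0.00919, and 5.8S-14 between −0.00644 and 0.00868. 5.8S-14 gave −0.000433 with flanks of 2 positions, −0.00422 without FBLTri replicate 1, −0.00644 without FBLQua replicate 2, −0.00275 without empty-vector replicate 2 and −0.000456 with FBLTri alone. Of the values for single sites in the pooled comparison, 850 kept direction and call, 114 lost the call and 12 gained it. Between the mutants, 65 kept it and 75 lost it. The counting half-width had a median of 0.0226, about the size of the smallest called change (0.0217), and 48 scores of 0 hide any further fall.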

Other observations

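NOP56 and NOP58, core proteins of the box C/D particles, are themselves hosts of guide RNAs, and their listed sites were picked out after the data were seen. They host the guides of 5 listed sites, all in 18S rRNA. Of these, 3 were lowered by limma, against 18 of all 120 sites (15%) and 13 of the 47 sites of 18S rRNA (27.7%): 18S-99 (SNORD57), 18S-509 (SNORD11 and SNORD11B) and 18S-512 (SNORD70). 18S-517 (SNORD56, in NOP56) averaged 0.983 ± 0.0037 with the mutants (SD, n = 4) and 0.993 ± 0.00458 with the empty vector (SD, n = 2), a change of −0.00966 (adjusted p = 0.259). 18S-1288 (SNORD110, in NOP56) averaged 0.906 ± 0.00334 with the mutants and 0.900 ± 0.00293 with the empty vector, a change of 0.00615 (adjusted p = 0.448). The median change over the 5 was −0.0842, against 0 over all 120 sites.

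28S-4560, guided by SNORD119, had 0.223 and 0.229 with FBLTri and 0.163 and 0.160 with FBLQua, against 0.260 and 0.361 with the empty vector. All mutant libraries were below both empty-vector libraries, but the change of −0.116 (SE 0.0739) was not called (limma adjusted p = 0.285). Over the whole table, 31 sites had all mutant libraries below both empty-vector libraries (25.8%) and 27 had all above (22.5%).

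28S-4198, guided by the SNORD58 family, had 0.858 and 0.859 with FBLTri and 0.831 and 0.817 with FBLQua, against 0.781 and 0.747 with the empty vector. Its change of 0.0778 (adjusted p = 0.0511) fell just outside the threshold.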
